A study of Homo sapiens with 8 samples.

Results

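The 10 genes described here encode the machinery that assembles antigen receptor genes: RAG1, RAG2 and DNTT, and the end joining factors XRCC5, XRCC6, PRKDC, DCLRE1C, XRCC4, LIG4 and NHEJ1. They were chosen by symbol, and all 10 were found among the 23621 gene rows of both deposited tables. RNA was measured by poly(A) sequencing in NALM6, an established line from a human B-cell precursor acute lymphoblastic leukemia, in which a doxycycline (DOX)-inducible construct carried HA-tagged HMGN1, a nucleosome-binding protein, as the wild type (WT) or as the nucleosome binding-deficient HMGN1 S20,24E mutant (SE). Treatment lasted 6 hours, with DOX (100 ng/ml) or with vehicle. The 8 libraries form 4 groups of 2 (each construct with each treatment), each with a biological replicate A and B per the labels. How the replicate cultures were kept apart, and whether a construct line is 1 clone, is not stated in the labels, so p-values measure the spread between these libraries, which may be partly technical. All cells also carry the genome's own HMGN1 gene, and no library lacks the construct.

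In developing lymphocytes the RAG1-RAG2 recombinase cuts DNA beside the V, D and J segments of immunoglobulin and T-cell receptor genes. The cut leaves hairpin-sealed coding ends. These are opened by Artemis (DCLRE1C) together with the kinase DNA-PKcs (PRKDC), which is brought to the break by the Ku heterodimer (XRCC5 and XRCC6), and are sealed by DNA ligase IV (LIG4) with XRCC4 and XLF (NHEJ1). Terminal deoxynucleotidyl transferase (DNTT) adds untemplated nucleotides at the junctions. RAG1, RAG2 and DNTT are expressed in immature lymphocytes, whereas the end joining factors repair breaks in nearly all cells.

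Values are FPKM, fragments scaled to transcript length and to the mapped size of the library, from a table normalized by the authors to ERCC spike-ins (synthetic RNAs added in a fixed amount to the RNA of equal cell numbers) and from an unnormalized table. FPKM carry no counts of reads, so library depth is unknown. In bulk RNA, fewer cells of a type and less RNA per cell cannot be told apart. HMGN1 itself did not rise with the DOX label, at 792.9 to 809.2 unnormalized FPKM over the WT libraries and 1061 to 1427 over the SE libraries, so directions below are those of the labels. Whether transcripts of the construct fall on this row is unknown. On the spike-in scale the median gene lay higher in WT, with library medians of 3.991 to 4.232 (log2) in WT and 3.414 to 3.902 in SE, the lowest being SE DOX replicate A. Spike-ins made up 0.531% to 0.569% of the unnormalized values in WT and 0.719% to 1.06% in SE. All 13 B-lineage markers were above the minimum level for testing, with summed unnormalized levels of 2750 to 2780 FPKM in WT and 2250 to 2630 in SE. Of 12 T-lineage markers 2 (PTCRA and GATA3) passed that minimum, with sums of 9.36 to 9.61 in WT and 8.17 to 9.16 in SE, and CD3G, CD2 and CD7 were listed at 0 in every library. Of 10 myeloid markers 2 (LYZ and CD33) passed, with sums of 2.84 to 5.83 in WT and 3.37 to 4.41 in SE, and ELANE and FCGR3A were listed at 0. None of 7 erythroid markers passed, with HBB, HBG1 and HBG2 among those listed at 0 and sums of at most 0.0938 in WT and 0.0662 in SE.

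All 10 genes were expressed in every library and entered the tests, which used 11465 genes with a mean of at least 1 spike-in-normalized FPKM. The lowest single value was 9.523 normalized FPKM, for NHEJ1 in SE DOX replicate A, so none of the 10 passed the minimum through 1 group alone. The recombinase genes and DNTT were abundant: DNTT exceeded 96.8% of the tested genes in mean normalized level, RAG1 93.4% and RAG2 86.5%. The Ku genes were as high, with XRCC6 above 98.1% and XRCC5 above 96.7% of genes, followed by PRKDC at 91.7% and LIG4 at 89.6%. XRCC4, DCLRE1C and NHEJ1 lay in the middle, above 53.4%, 51.4% and 49.1%. Per unit of transcript length the order was XRCC6, DNTT, XRCC5, RAG1, PRKDC, LIG4, RAG2, XRCC4, DCLRE1C and NHEJ1. Among neighbours, DNTT exceeded XRCC5 in 6 of 8 libraries, RAG1 exceeded PRKDC in 6 of 8, PRKDC exceeded LIG4 in 7 of 8 and XRCC4 exceeded DCLRE1C in 7 of 8. The other 5 neighbouring pairs kept their order in 8 of 8 libraries. Only RAG2 and XRCC4 had ranges that did not overlap on the normalized scale. Without the spike-in factor the neighbours XRCC6 and DNTT, XRCC5 and RAG1, and LIG4 and RAG2 did not overlap either.

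**Figure D1:**
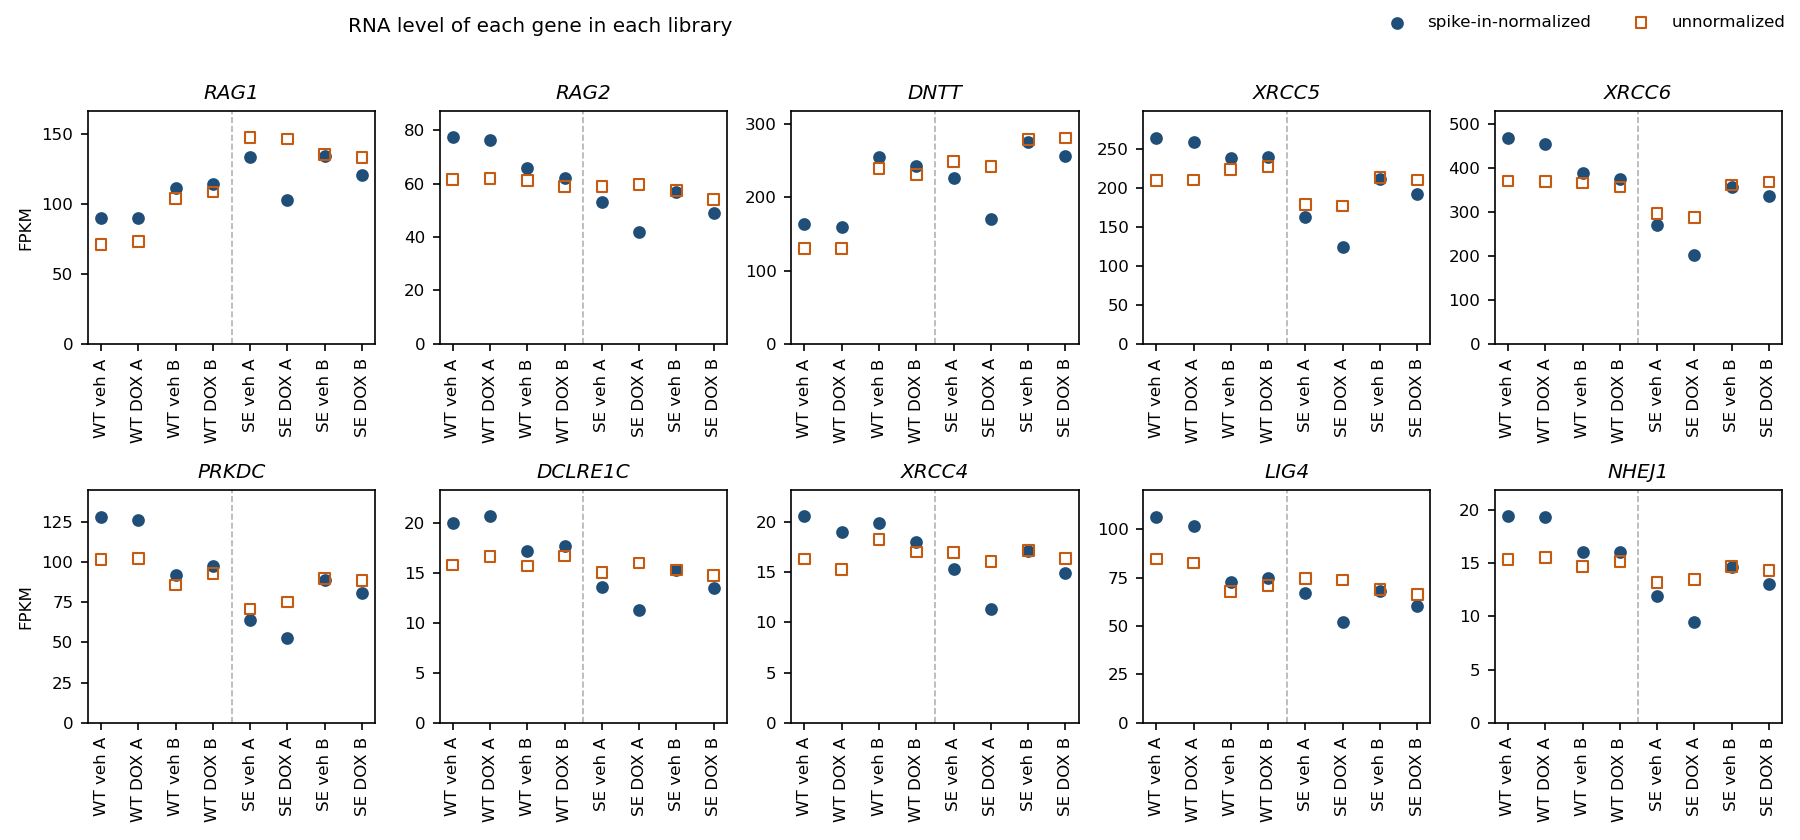
RNA level (FPKM, linear axis from 0) of each gene in each of the 8 libraries, WT left and SE right of the dashed line, with filled circles for the spike-in-normalized and open squares for the unnormalized table. Filled circles of most genes are lower in SE, whereas open squares of RAG1 and DNTT are higher there, at 133.1 to 147.5 FPKM against 71.2 to 108.7 for RAG1.

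The recombinase genes and DNTT are given first. RAG1, which holds the catalytic site, stood at 71.2 and 73.13 unnormalized FPKM in WT replicate A (vehicle, then DOX) and 104.1 and 108.7 in WT replicate B. In SE it stood at 147.5 and 146.6 in replicate A and 135.6 and 133.1 in replicate B. WT and SE did not overlap, and the WT A libraries were the lowest. On the spike-in scale RAG1 was 101.5 ± 13.32 (SD, n = 4 libraries) FPKM in WT and 123.0 ± 14.5 (SD, n = 4) in SE, with ranges of 89.78 to 114.4 and 103.2 to 134.1 that overlapped.

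RAG2, the partner that reads the histone mark H3K4me3, was nearly level in the unnormalized table. It stood at 61.45 and 61.86 unnormalized FPKM in WT A, 61.1 and 59.05 in WT B, 58.87 and 59.66 in SE A and 57.53 and 54.01 in SE B. The lowest and highest of the 8 values belonged to SE DOX B and WT DOX A, and the constructs overlapped. They did not overlap on the spike-in scale, at 62.16 to 77.46 FPKM in WT and 42.05 to 57.06 in SE. The ratio of RAG1 to RAG2, which is free of any library-wide factor, was 1.16 and 1.18 in WT A, 1.7 and 1.84 in WT B, 2.5 and 2.46 in SE A and 2.36 and 2.46 in SE B. It was thus lowest in WT A, and all 4 WT libraries lay below all 4 SE libraries. The exons of RAG1 and RAG2 overlap on opposite strands in the reference annotation (GRCh38.p14). The values were made with hg19, whose gene models were not examined here. No label says that counting used strand, so part of the reads may not be assignable to 1 of them with certainty.

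DNTT had the widest spread of the 10 in the unnormalized table, with the highest library at 2.17 times the lowest. Its ratio on the spike-in scale was 1.72, above that of RAG1 (1.49) and below those of the other 8, up to 2.41 for PRKDC. It stood at 129.8 and 129.8 unnormalized FPKM in WT A, 239.0 and 230.8 in WT B, 249.0 and 242.2 in SE A and 279.0 and 281.2 in SE B. Both WT A libraries were far below the other 6, and all 4 WT libraries were below all 4 SE libraries, with WT vehicle B and SE DOX A nearest to each other. Means were 182.3 ± 60.76 (SD, n = 4) in WT and 262.8 ± 20.14 (SD, n = 4) in SE, and on the spike-in scale 205.4 ± 50.59 (SD, n = 4) and 232.1 ± 45.71 (SD, n = 4).

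The Ku genes shared a low in SE A but differed within WT. XRCC6 (Ku70) stood at 370.7 and 369.2 unnormalized FPKM in WT A, 365.9 and 357.1 in WT B, 296.9 and 287.4 in SE A and 361.1 and 367.9 in SE B. XRCC5 (Ku80) stood at 209.6 and 210.4 in WT A, 223.4 and 227.5 in WT B, 179.2 and 177.0 in SE A and 213.8 and 210.5 in SE B. In both genes the SE A libraries were the lowest of the 8. Within WT, XRCC6 was slightly higher in A than in B, and XRCC5 was lower in A. The ratio of XRCC6 to XRCC5 stayed between 1.57 and 1.77. XRCC6 has processed pseudogenes, so its level is uncertain where reads fit more than 1 copy.

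PRKDC, the kinase of end joining, stood at 101.6 and 102.5 unnormalized FPKM in WT A, 85.96 and 93.0 in WT B, 70.84 and 75.34 in SE A and 89.86 and 88.7 in SE B. It was highest in WT A and lowest in SE A. DCLRE1C, the nuclease that opens hairpins, ranged from 15.71 to 16.71 in WT and from 14.75 to 15.99 in SE, and the constructs overlapped. It has a pseudogene and, in the GRCh38.p14 annotation, a neighbour with overlapping exons, so its level is uncertain too. The ratio of PRKDC to DCLRE1C was 4.7 and 4.71 in SE A and 5.47 to 6.43 in the other 6 libraries.

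Of the ligation genes, LIG4 stood at 84.62 and 82.59 unnormalized FPKM in WT A, 67.88 and 71.03 in WT B, 74.52 and 73.83 in SE A and 68.88 and 66.31 in SE B. WT A was the highest pair, and within both constructs A lay above B. XRCC4, which stabilizes LIG4, ranged from 15.27 to 18.28 in WT and from 16.06 to 17.17 in SE, so the SE range lay inside that of WT. NHEJ1, the XLF factor that aligns ends, ranged from 14.73 to 15.53 in WT and from 13.22 to 14.7 in SE, and the constructs did not overlap. The gap between the constructs was 14.73 against 14.7. In the GRCh38.p14 annotation a read-through transcript model overlaps NHEJ1.

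Promoter sequences are shown for 3 genes whose RNA behaved differently between libraries: DNTT (lowest in WT A), LIG4 (highest in WT A) and RAG2 (nearly level in the unnormalized table). Each is the 250 bases before the RefSeq transcription start (GRCh38.p14, 5′ to 3′ on the gene's strand; chr10:96304184-96304433 on the plus strand for DNTT, chr13:108218350-108218599 and chr11:36598237-36598486 on the minus strand for LIG4 and RAG2). Capitals mark the E-box CANNTG, the motif of E proteins such as TCF3. The sequences come from RefSeq, where 8 of the 10 genes were matched, and a motif match describes letters only.
DNTT: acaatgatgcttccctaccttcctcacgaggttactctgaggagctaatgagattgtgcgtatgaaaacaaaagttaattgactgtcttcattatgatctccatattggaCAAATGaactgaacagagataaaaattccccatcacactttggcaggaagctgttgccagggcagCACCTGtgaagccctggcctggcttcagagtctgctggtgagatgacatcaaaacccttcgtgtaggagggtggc
LIG4: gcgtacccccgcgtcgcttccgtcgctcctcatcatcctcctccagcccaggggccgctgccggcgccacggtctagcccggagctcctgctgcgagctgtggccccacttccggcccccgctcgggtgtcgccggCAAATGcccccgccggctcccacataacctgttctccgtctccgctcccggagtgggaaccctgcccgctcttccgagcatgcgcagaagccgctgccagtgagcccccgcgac
RAG2: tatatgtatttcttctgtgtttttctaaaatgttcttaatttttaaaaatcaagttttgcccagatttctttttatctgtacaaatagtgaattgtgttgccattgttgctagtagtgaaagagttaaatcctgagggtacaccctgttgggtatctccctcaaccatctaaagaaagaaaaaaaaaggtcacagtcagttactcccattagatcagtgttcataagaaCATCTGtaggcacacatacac
The DNTT window held 2 E-boxes and the LIG4 and RAG2 windows 1 each, beside 61.8% of 35116 RefSeq promoter windows of the same length with at least 1. GC content was 46.4% for DNTT, 72.0% for LIG4 and 34.0% for RAG2, beside a median of 58.0% over all windows. The GC box GGGCGG, searched on both strands, was in none of these 3 windows, 3 times in that of XRCC6, 2 times in that of NHEJ1 and once each in those of RAG1, DCLRE1C and XRCC4, beside 42.6% of all windows with a match. The FOXO core GTAAACA, also searched on both strands, was in none of the 8 and in 2.98% of all windows. Matches of different motifs were counted separately, also where their ends could share letters.

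The first question of the design was whether 6 hours of DOX changed the levels of these genes. None of the 10 passed the test in either construct. In WT the differences were small against the spread that the fit pooled over all 4 groups without pairing. They ran from -0.13 for XRCC4 to 0.05 for DCLRE1C on the log2 scale, with limma adjusted p = 1 for all 10 and 0 genes at an unadjusted p under 0.05. Over all tested genes 0.0698% were called. Tests were made with limma on log2(normalized FPKM + 0.1), with Benjamini-Hochberg adjustment over all 11465 genes and a threshold of 0.05. RAG1 was 100.7 ± 15.45 (SD, n = 2) FPKM in WT vehicle and 102.3 ± 17.05 (SD, n = 2) in WT DOX, a log2 difference of 0.02 (95% interval -0.51 to 0.56). RAG2 was 71.65 ± 8.216 and 69.35 ± 10.17 (SD, n = 2 each), a difference of -0.05 (-0.54 to 0.44). DNTT was 209.5 ± 64.58 and 201.3 ± 58.65 (SD, n = 2 each), a difference of -0.05 (-0.79 to 0.69). DCLRE1C was 18.57 ± 2.0 and 19.18 ± 2.159 (SD, n = 2 each). XRCC4 was 20.29 ± 0.4968 and 18.51 ± 0.7185 (SD, n = 2 each), a difference of -0.13 (-0.54 to 0.28), so its means lay apart by more than its own SDs. The intervals leave room for changes of up to 1.47-fold in RAG1, 1.36-fold in RAG2 and 1.61-fold in DNTT upwards.

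In SE all 10 genes had lower means in the libraries labelled DOX on the spike-in scale, from -0.31 for XRCC4 to -0.21 for PRKDC. The median over all tested genes was -0.24, and the 10 lay around it with a median of -0.26. Without SE DOX A the median of the 10 was -0.06, beside -0.05 for all genes. XRCC6 (0.11), PRKDC (0.09), XRCC5 (0.05) and DNTT (0.04) then had higher means with the DOX label. That fit sets SE DOX B against the SE vehicle libraries of both letters, so its values also hold the difference between letters. Within replicate B, DOX minus vehicle was -0.09 for XRCC6, -0.14 for PRKDC, -0.14 for XRCC5 and -0.105 for DNTT. Without SE vehicle B the median of the 10 was -0.13, beside -0.16 for all genes. Without SE DOX B it was -0.49, beside -0.43, and without SE vehicle A it was -0.39, beside -0.32. None passed (limma adjusted p = 0.537 to 0.571, 0 at an unadjusted p under 0.05, beside 0.0523% of all genes called). Between the DOX and the vehicle library of replicate A the differences ran from -0.44 (XRCC4) to -0.27 (PRKDC and DCLRE1C), and in replicate B from -0.22 (RAG2) to -0.09 (XRCC6). With each library scaled to the same median the differences ran from -0.08 to 0.03 in SE and from -0.11 to 0.07 in WT, with limma adjusted p = 1 for all 10 in both, beside 0.0436% of all genes called in WT and 0.0523% in SE. XRCC4 was the lowest of the 10 in both constructs: its unnormalized level was lower in the DOX library of every same-letter pair, by 0.10 and 0.10 (log2) in WT and 0.08 and 0.07 in SE. XRCC4 did not pass in either construct in the fit without pairing. With the replicate letter as a block it passed in SE (-0.31, limma adjusted p = 0.0394), 1 of 10 beside 14.5% of all genes, and it did not pass with the block and equal medians together.

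The difference of the DOX effects between constructs (WT minus SE) ran from 0.18 for XRCC4 to 0.28 for RAG1, beside a median of 0.21 for all tested genes. No member passed (limma adjusted p = 0.83 for all 10, 0 at an unadjusted p under 0.05, beside 0.0785% of all genes). With equal library medians the 10 differences ran from -0.03 to 0.07, again with 0 called, beside 0.0523% of all genes.

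**Figure D2:**
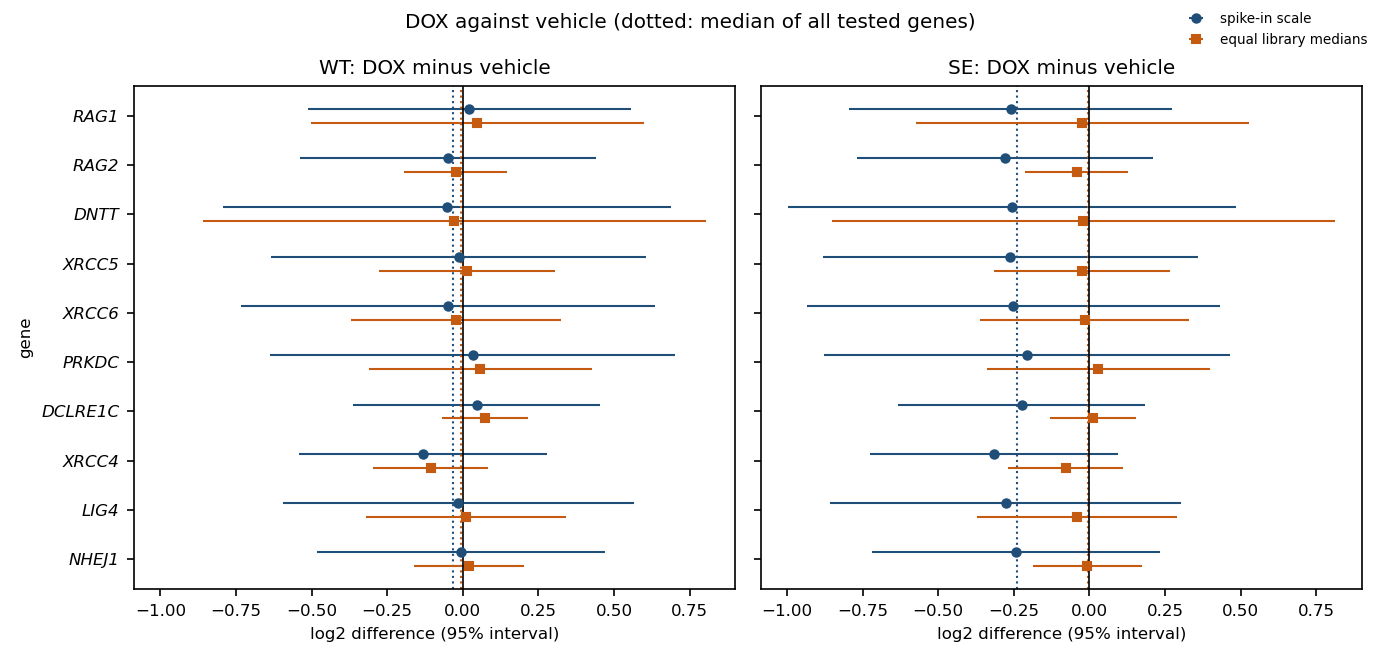
Log2 difference between libraries labelled DOX and vehicle for each gene, with 95% intervals from limma, in WT and SE on the spike-in scale and after scaling to equal library medians. Dotted lines are medians of all tested genes. Every interval includes 0, and on the spike-in scale the SE values sit near the median of -0.24.

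The genes around the core pathway did not pass either. Of the related lists none had a called gene in either DOX comparison on the spike-in scale: accessory end joining factors (10 tested), break sensing and end protection (15), alternative end joining (7), homologous recombination (14), RAG cofactors and turnover (6) and regulators of the RAG genes (16). Their medians ran from -0.02 to 0.01 in WT, beside -0.03 for all genes, and from -0.26 to -0.22 in SE, beside -0.24. Examples of smallest p in SE were WRN, a helicase that works with Ku (-0.28, limma adjusted p = 0.537), RNF168, a ubiquitin ligase at breaks (-0.27, adjusted p = 0.537), and RAD52, a recombination mediator (-0.33, adjusted p = 0.537). The polymerase gene POLL, at 0.0377 to 0.114 unnormalized FPKM, and GFI1B, at 0 to 0.0221, were below the minimum and not tested.

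The second question was how the constructs differed. On the spike-in scale, over both treatments, 8 of the 10 genes were higher in WT, and RAG1 and DNTT were not. The 8 called genes were RAG2, XRCC5, XRCC6, PRKDC, DCLRE1C, XRCC4, LIG4 and NHEJ1. The same call was made for 60.1% of all tested genes as higher and 60.5% in all, so 8 of 10 is read against a background in which most genes passed. The largest difference was that of PRKDC, 111.2 ± 18.74 (SD, n = 4) FPKM in WT and 71.68 ± 16.15 (SD, n = 4) in SE, a log2 difference of 0.65 (SE 0.21, limma adjusted p = 0.0401). XRCC4 had the smallest among the called, 19.4 ± 1.147 against 14.68 ± 2.435 (SD, n = 4), a difference of 0.41 (SE 0.13, limma adjusted p = 0.0401). RAG2 differed by 0.49, DCLRE1C by 0.50, LIG4 by 0.51, NHEJ1 by 0.53 and the Ku genes by 0.56 each, with limma adjusted p = 0.0401 to 0.0471. RAG1 differed by -0.28 (95% interval -0.66 to 0.10, limma adjusted p = 0.157) and DNTT by -0.19 (-0.71 to 0.34, adjusted p = 0.473). The median over all tested genes was 0.43, so the other 8 lay within 0.22 of that median, RAG1 0.70 below it and DNTT 0.61 below it.

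These 8 calls rested on the library-wide shift, on a fit without pairing and on single libraries. The differences on the spike-in scale moved less than the calls. Their median over the 10 genes was 0.414 to 0.577 with any 1 library left out, beside 0.503 with none left out. With the replicate letter as a block the differences were unchanged, and none of the 10 was called (limma adjusted p = 0.153 to 0.157 for the 8), beside 0.113% of all genes. With equal library medians, and in the unnormalized table, none of the 10 was called, and 0.436% and 0.494% of all genes were. The differences with equal medians were then 0.24 for PRKDC (95% interval -0.02 to 0.50, limma adjusted p = 0.316), 0.16 for each Ku gene, 0.13 for NHEJ1 and 0.01 for XRCC4. The number of the 10 genes called was 0 without WT vehicle A, WT DOX A, SE vehicle A, SE DOX A or SE vehicle B, beside 0.314% to 0.863% of all genes. It was 5 without WT vehicle B, 6 without WT DOX B and 8 without SE DOX B, beside 41.9%, 54.1% and 77.7%. RAG1 had -0.68 (95% interval -1.07 to -0.29, unadjusted p = 0.00483, limma adjusted p = 0.172) and DNTT -0.59 (-1.18 to -0.003206, unadjusted p = 0.0491, adjusted p = 0.299) with equal medians, and neither passed over all genes. At an unadjusted p under 0.05 were these and NHEJ1 (unadjusted p = 0.0468), 3 of 10 beside 1908 of all 11465 genes. With the replicate block and equal medians together, limma adjusted p was 0.48 for RAG1 and 0.737 for DNTT.

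Within single treatments none of the 10 passed. In vehicle RAG1 had -0.42 and DNTT -0.29, and the other 8 had 0.32 to 0.53, beside a median of 0.32 over all genes. Limma adjusted p was 0.339 to 0.499 over the 10, beside 0.183% of all genes called. At an unadjusted p under 0.05 were 0 of the 10, beside 816 of all 11465 genes. In DOX RAG1 had -0.14 and DNTT -0.09, and the other 8 had 0.51 to 0.77, beside a median of 0.53 over all genes. Limma adjusted p was 0.0765 to 0.0872 for these 8, 0.604 for RAG1 and 0.816 for DNTT, beside 0.105% of all genes called. At an unadjusted p under 0.05 were 7 of the 10, beside 6929 of all 11465 genes. Without SE DOX B, 7 of the 10 were called in that comparison, beside 72.3% of all genes.

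The same contrast can be read from the ranges. The 4 WT libraries lay above the 4 SE libraries on the spike-in scale for 8 of the 10 genes, as for 65.2% of all tested genes. In the unnormalized table this held for NHEJ1 alone, beside 11.5% of genes, and the reverse held for RAG1 and DNTT, beside 7.95% of genes. The constructs' libraries were all lower in WT for no member on the spike-in scale, beside 0.34% of genes. Over both treatments RAG1 and DNTT had negative differences and the other 8 positive ones on both scales, and limma called neither RAG1 nor DNTT on either. These signs rested partly on single libraries on the spike-in scale. Over both treatments DNTT had -0.35 to -0.03 with any 1 library left out, nearest to 0 without WT vehicle A, WT DOX A or SE DOX B, and RAG1 had -0.36 to -0.19. In vehicle DNTT had 0.03 without WT vehicle A. In DOX, leaving out WT DOX A gave 0.03 for RAG1 and 0.22 for DNTT, and leaving out SE DOX B gave -0.02 and 0.21. XRCC4, in turn, had -0.00831 in DOX in the unnormalized table.

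**Figure D3:**
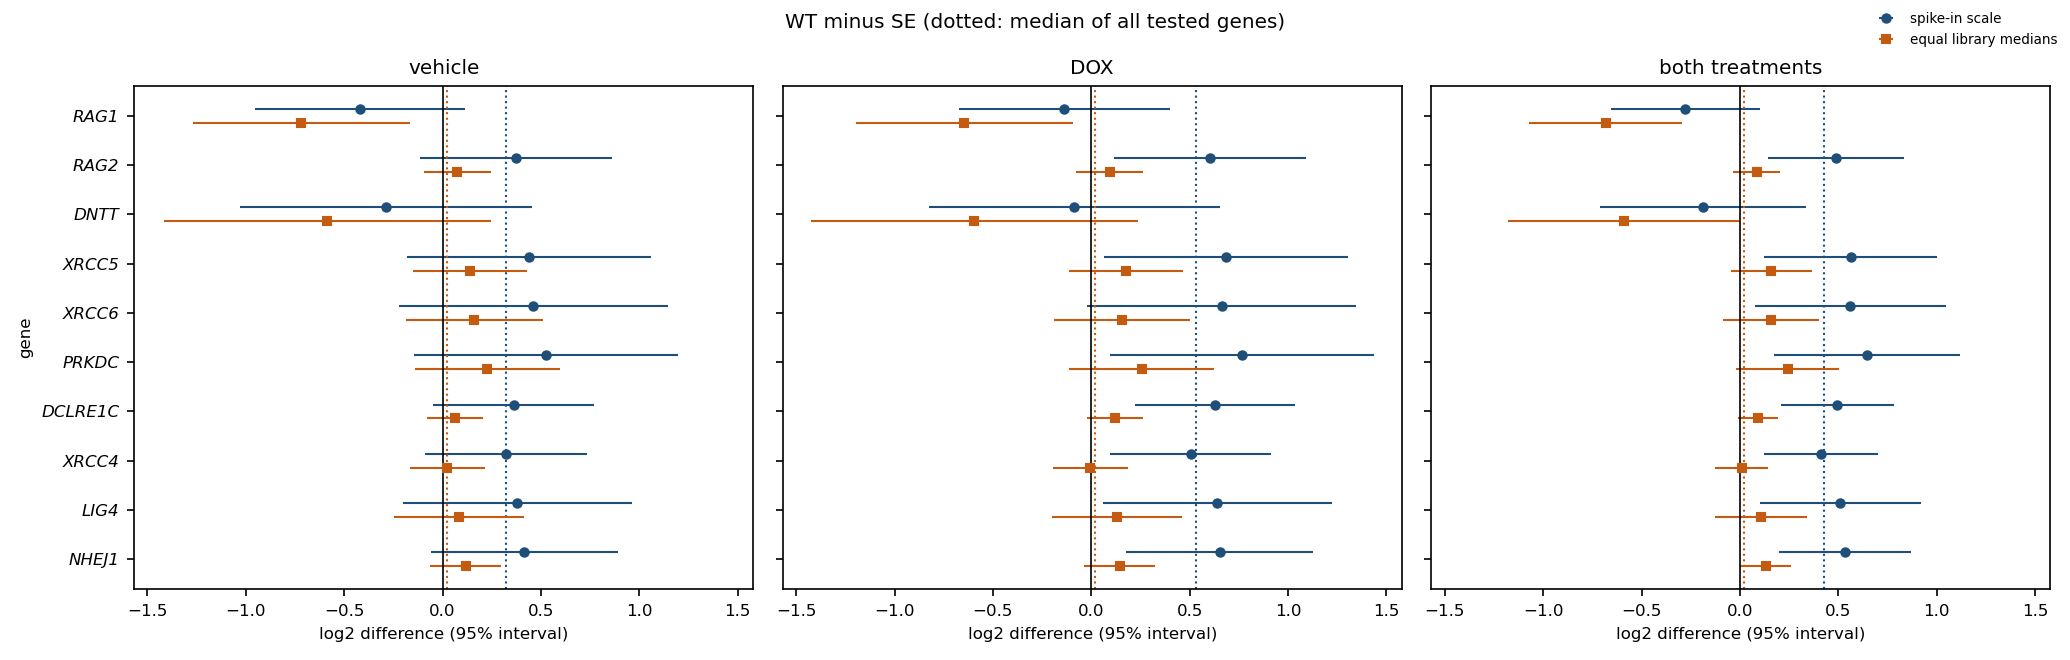
Log2 difference WT minus SE of each gene with 95% intervals from limma, in vehicle, in DOX and over both treatments, on the spike-in scale and after scaling to equal library medians. Dotted lines are medians of all tested genes. RAG1 and DNTT lie left of 0 on both scales, and the other 8 lie near the dotted line of their scale.

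Related genes showed the same dependence on scale. Called as higher in WT on the spike-in scale were 7 of 10 accessory end joining factors (median 0.50), 10 of 15 break sensing genes (0.42), 5 of 7 alternative end joining genes (0.49), 9 of 14 homologous recombination genes (0.42), 3 of 6 RAG cofactors (0.45) and 7 of 16 RAG regulators (0.43), with none lower. Over all tested genes the same call was made for 60.1%, with a median of 0.43. IRF8, a transcription factor of the B and myeloid lineages, had the largest value, 1.07 (limma adjusted p = 0.0401). Its level was low, at 1.02 to 2.92 normalized FPKM, near the minimum for testing. POLM, the polymerase mu related to DNTT, had 0.58, RAD50 of the MRN complex 0.58, and HMGB1, a DNA-bending cofactor of RAG, 0.53 (adjusted p = 0.0401, 0.0401 and 0.0425). With equal library medians no gene of these lists was called, and IRF8 had 0.67 (adjusted p = 0.128).

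The third pattern was seen in the values first and then tested: replicate A against replicate B within a construct, over both treatments. This comparison was added once the values were known. Libraries of the same letter resembled each other more than libraries of the same group. The median absolute log2 difference over genes was 0.0368 to 0.0544 between vehicle and DOX of 1 letter and 0.111 to 0.129 between letters, in the unnormalized table. The DOX and vehicle libraries of a letter may come from 1 culture, and the p-values below then describe the spread between libraries and not between cultures.

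In WT, DNTT was lower in A than in B. It had a log2 difference of -0.62 (SE 0.18, limma adjusted p = 0.0168) on the spike-in scale and -0.84 (SE 0.03, adjusted p = 1.7e-05) with equal library medians, or 0.56-fold. LIG4 was higher in A, by 0.50 (SE 0.17, adjusted p = 0.0486) and 0.28 (SE 0.03, adjusted p = 0.00116), or 1.22-fold with equal medians. These were the 2 of 10 genes called on the spike-in scale, where 12.5% of all genes were, 11.4% higher and 1.15% lower in A. With equal medians RAG1 (-0.54, or 0.69-fold, limma adjusted p = 7.2e-05), PRKDC (0.21, adjusted p = 0.0102) and XRCC5 (-0.08, adjusted p = 0.035) were called too, 5 of 10 beside 43.7% of all genes. RAG2 had 0.05, XRCC6 0.05, NHEJ1 0.05, DCLRE1C 0.01 and XRCC4 -0.15, and did not pass. On the spike-in scale the call of DNTT was lost when any 1 WT library was left out (limma adjusted p = 0.181 to 0.226), while its difference stayed at -0.657 to -0.585. That of LIG4 was lost likewise (adjusted p = 0.297 to 0.427), with differences of 0.465 to 0.529, and also without SE vehicle B or SE DOX B (adjusted p = 0.0914 and 0.0895), which leave its difference as it was.

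The WT A libraries also had the highest or lowest levels of some markers of other cell types. Of 6 markers of mature B or plasma cells 3 passed the minimum level, with sums of 10.9 to 14.7 unnormalized FPKM in WT and 10.2 to 13.4 in SE, and CR2 was at most 0.01. MS4A1 (CD20) stood at 5.26 and 5.1 in WT A and at 1.15 to 3.41 in the other 6 libraries. FCER2 (CD23) stood at 3.34 and 3.71 in WT A and at 0.366 to 1.38 elsewhere. SDC1 (CD138), the plasma cell marker, was lowest in WT A at 5.04 and 5.22, against 6.23 to 8.48. The myeloid marker LYZ stood at 4.62 and 3.96 in WT A and at 1.22 to 1.7 elsewhere. CD33, the only other myeloid marker above the minimum level, did not share this pattern. It stood at 0.681 and 1.02 in WT A, 0.77 and 0.54 in WT B and 1.43 to 1.83 in SE. The part of these markers in the low DNTT and RAG1 of WT A was not tested.

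In SE, the Ku genes and PRKDC were lower in A. XRCC6 had -0.56 (SE 0.18, limma adjusted p = 0.0418) on the spike-in scale and -0.31 (adjusted p = 0.0011) with equal medians, or 0.81-fold. PRKDC had -0.54 (SE 0.17, adjusted p = 0.0418) and -0.29 (adjusted p = 0.00388). These 2 of 10 were called on the spike-in scale, beside 8.83% of all genes, of which those lower in A made up 7.94% of the genes tested. With equal medians 7 of 10 were called beside 38.7% of all genes: XRCC5 (-0.25, limma adjusted p = 0.00112), DNTT (-0.18, adjusted p = 0.00433) and NHEJ1 (-0.13, adjusted p = 0.0114) also lower, and RAG1 (0.13, adjusted p = 0.0139) and LIG4 (0.14, adjusted p = 0.0218) higher in A. RAG2 (0.09), DCLRE1C (0.04) and XRCC4 (-0.03) did not pass. The spike-in calls of XRCC6 and PRKDC were lost without any 1 WT library, which leaves their differences as they were (limma adjusted p = 0.107 to 0.116). They were lost too without SE vehicle B (-0.52 and -0.47, adjusted p = 0.514 and 0.553) and without SE DOX B (-0.61 each, adjusted p = 0.172 and 0.157). Without SE DOX A they were kept at -0.36 and -0.40, and without SE vehicle A at -0.77 and -0.67.

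With equal medians the 5 genes called in WT were among the 7 called in SE, beside 43.7% of all genes called in WT and 38.7% in SE. The share of all genes called in both was not computed, so this overlap is not read as particular to the 10. DNTT and XRCC5 were lower in A and LIG4 higher in A in both constructs. PRKDC was higher in A in WT and lower in A in SE, and RAG1 was lower in A in WT and higher in A in SE. The difference of the letter effects between constructs was not tested, and A and B of 1 construct are not matched to A and B of the other by the labels.

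**Figure D4:**
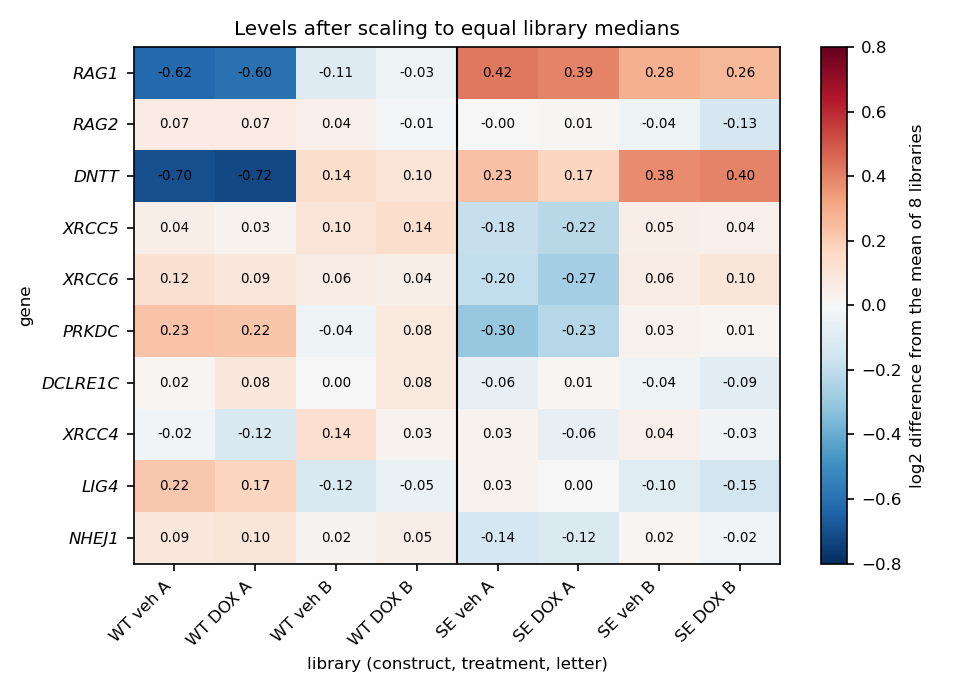
Log2 difference of each gene in each library from its mean over the 8 libraries, after scaling all libraries to the same median. WT A stands out by low RAG1 (-0.62 and -0.60) and DNTT (-0.70 and -0.72), and SE A by low PRKDC (-0.30 and -0.23) and XRCC6 (-0.20 and -0.27).

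**Figure D5:**
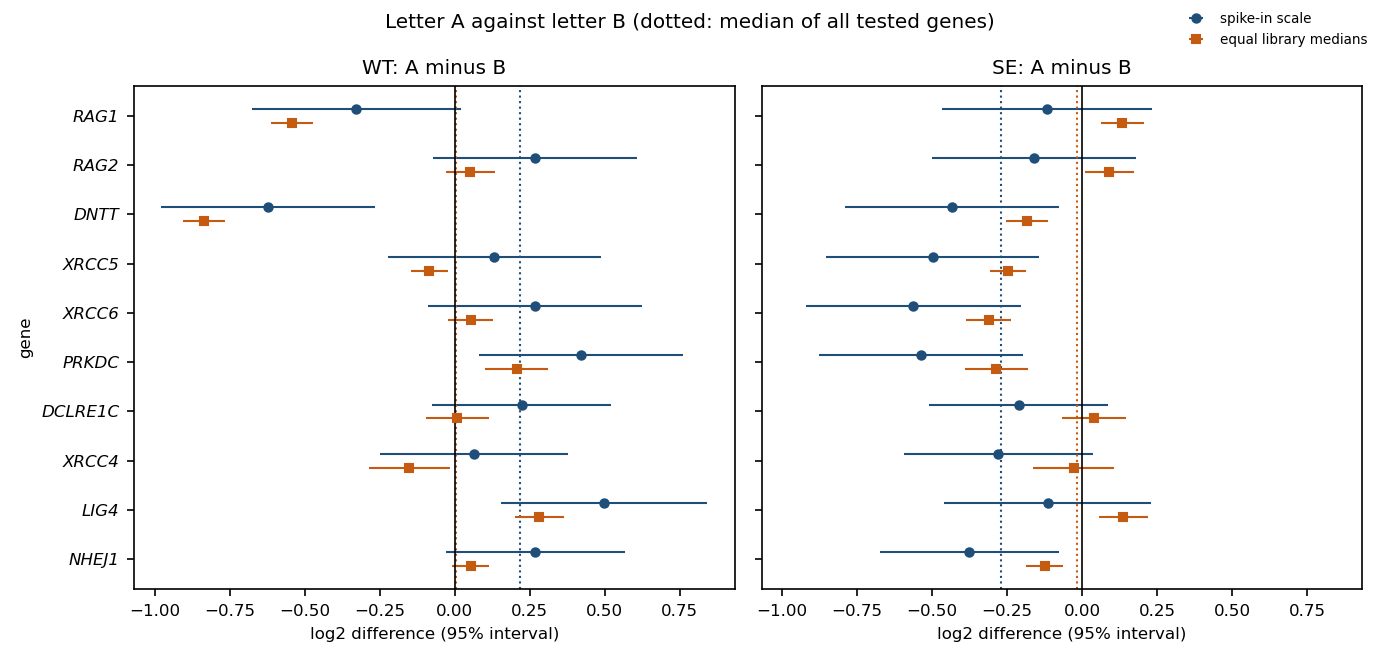
Log2 difference of replicate A minus replicate B of each gene with 95% intervals from limma, in WT and in SE, on the spike-in scale and after scaling to equal library medians. Dotted lines are medians of all tested genes. DNTT has the lowest value in WT on both scales, and XRCC6 the lowest in SE.

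Genes outside the core differed between letters as well. With equal medians the genes lower in WT A were 6 of 14 homologous recombination genes, 4 of 7 alternative end joining genes, 4 of 15 break sensing genes, 1 of 10 accessory factors, 3 of 6 RAG cofactors and 8 of 16 RAG regulators, with 0, 0, 0, 3, 0 and 3 higher. Over all tested genes 20.1% were lower and 23.5% higher in WT A. Examples are BLM, a helicase of homologous recombination (-0.24, limma adjusted p = 0.00071), LIG3, a ligase of alternative joining (-0.28, adjusted p = 0.00287), HMGB2 (-0.25, adjusted p = 0.00107) and the transcription factors ETS1 (-0.43, adjusted p = 0.000227), MYB (-0.36, adjusted p = 0.000234) and EBF1 (-0.34, adjusted p = 0.000123). POLM (0.32, limma adjusted p = 0.00245) and IKZF1, the Ikaros factor (0.23, adjusted p = 0.00102), were higher in WT A. In SE A 8 of 14 homologous recombination genes, 6 of 7 alternative end joining genes, 3 of 15 break sensing genes, 2 of 10 accessory factors, 3 of 6 RAG cofactors and 8 of 16 regulators were lower, and 0, 0, 0, 0, 0 and 3 higher, beside 23.9% and 14.8% of all genes. There C9orf142, the end joining factor PAXX, had -0.44 (limma adjusted p = 0.00225), PARP1 -0.25 (adjusted p = 0.000906), IKZF1 -0.33 (adjusted p = 0.00063) and FOXO1, an activator of the RAG genes, 0.32 (adjusted p = 0.000794). List medians ran from -0.16 to 0.01 in WT, beside 0.00 for all genes, and from -0.16 to 0.00 in SE, beside -0.02. On the spike-in scale the calls in WT were POLM and SPI1 (0.53 and 0.55, limma adjusted p = 0.0247 and 0.0137). They were 1 of 10 accessory factors and 1 of 16 regulators, beside 12.5% of all genes. In SE the calls were C9orf142, RAD54L, BRCA2, RAD51C, IKZF1 and EBF1 (-0.69 to -0.51). They were 1 of 10 accessory factors, 3 of 14 homologous recombination genes and 2 of 16 regulators, beside 8.83% of all genes. The other lists had none.

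How the 10 genes varied together is given as a description over the 8 libraries with equal medians, which are 4 near-identical same-letter pairs sharing scale factors, so no p is given. PRKDC and NHEJ1 had Pearson's r = 0.97, RAG1 and DNTT 0.92, and XRCC5 and XRCC6 0.91. DNTT and LIG4 had -0.91, and RAG1 and RAG2 -0.68. The 3 of 10903 tested genes most like RAG1 by this measure were MYO5C, NAV1 and OPALIN (r = 0.997 each), NAV1 ranging from 8.34 FPKM in WT DOX A to 22.0 in SE DOX A in the unnormalized table. For DNTT they were BAHCC1 (0.998), CADM4 (0.997) and FDFT1 (0.997), the squalene synthase, at 64.3 unnormalized FPKM in WT vehicle A and 93.9 in SE DOX B. For RAG2 they were GATAD1 (0.991), TAF4B (0.973) and PAPD4 (0.96), each lowest in SE DOX B, with GATAD1 at 5.94 to 7.78 and TAF4B at 13.1 to 14.4 unnormalized FPKM. OPALIN (0.435 to 1.44 unnormalized FPKM) and CADM4 (1.0 to 1.87) were low, near the minimum for testing.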

How the data were processed

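Poly(A) RNA-seq libraries (TruSeq kit, ERCC spike-ins, per the labels' protocols) were deposited by the authors as FPKM in 2 tables, unnormalized and spike-in-normalized. The submitters' processing notes name HISAT, Cufflinks 2.0.0 and hg19. How the spike-ins were applied is not stated there. An unnormalized 0 stands at 0.0718 to 0.135 in the normalized table.

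Here, 92 spike-in rows were left out of 23713, and limma 3.58.1 in R 4.3.3 (mean-variance trend) was fitted to log2(normalized FPKM + 0.1) of the 11465 genes with a mean of at least 1, with all 4 group means in the fit. Differences refer to this scale, and those of low genes are understated. Intervals are 95%. The comparison of letters used construct-letter means. Groups and letters come from the labels.

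The 10 genes and all lists were chosen with earlier results of these data known. Named besides the 10 are, per list and comparison, up to 5 called genes, otherwise the gene of smallest p, and the 3 genes most like RAG1, RAG2 and DNTT. Of these, examples are printed, and some genes that the rule selects are not reported here. In simulated data for the DOX comparison in WT (11163 genes) the fit recovered 4% of genes changed by 0.5 (log2), 32% by 1, 44% by -1 and 88% by 2, with 4 false calls. Each library was drawn independently, with the spread within groups on the spike-in scale.

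Tried as alternatives were equal library medians, the unnormalized table, a pseudocount of 1, no minimum level, 302 small RNA names left out, only the groups compared, a replicate block and leaving out each library.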

Additional observations from a re-analysis of the deposited data

Results flagged for a closer look

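Both genes below were picked out because both WT pairs moved one way with the DOX label and both SE pairs the other way on the spike-in scale. For RAG1 the DOX effect in WT minus that in SE was 0.282 on the log2 scale (limma adjusted p = 0.83). Its same-letter differences, DOX minus vehicle, were 0.00822 (A) and 0.0354 (B) in WT and -0.372 (A) and -0.149 (B) in SE. In the unnormalized table they were 0.0385 and 0.0634 in WT and -0.00858 and -0.0276 in SE.

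For DCLRE1C the difference was 0.27 (limma adjusted p = 0.83), from 0.0516 and 0.0417 in WT and -0.27 and -0.181 in SE. In the unnormalized table SE A had 0.0852 and SE B -0.0521, so the opposite directions were not kept there. The median of the same difference over all genes was 0.21 on the spike-in scale. With equal library medians, which takes that median out, RAG1 had 0.0716 and DCLRE1C 0.0598 (limma adjusted p = 1 for both).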

How the results depend on the processing

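Members called in WT against SE over both treatments numbered 8, also with a pseudocount of 1 and with small RNA names left out. They numbered 0 in the unnormalized table, with equal medians and without the minimum level, and 0 with a replicate block (adjusted p = 0.153 to 0.157 for the 8) or with the block and equal medians. Leaving out single libraries gave 0 to 8 (8 beside 77.7% of all genes). In WT against SE in DOX, the count was 0 and leaving out single libraries gave 0 to 7 (7 beside 72.3%). In DOX against vehicle in SE it was 0, and 1 with the replicate block (XRCC4, -0.31, limma adjusted p = 0.0394, beside 14.5%). For letters in WT the count of 2 became 6 (unnormalized), 5 (equal medians) and 0 (no minimum), beside 45.2%, 43.7% and 2.15% of all genes, and 0 to 8 without single libraries, 8 beside 53.1%. For letters in SE the count of 2 became 7 (unnormalized), 7 (equal medians), 0 (pseudocount of 1), 0 (no minimum) and 4 (small RNA names left out), beside 39.7%, 38.7%, 4.18%, 0.635% and 16.6%, and 0 to 10 without single libraries, 10 beside 80.7%. Called with the opposite sign were XRCC5 in WT letters (-0.102 unnormalized, -0.0841 equal medians), XRCC4 in WT letters (-0.16 unnormalized), and in SE letters RAG1 (0.13 and 0.134) and LIG4 (0.134 and 0.137). The causes were not tested.

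Counts over all genes moved too. With the replicate block they were 181 and 1663 for DOX in WT and SE against 8 and 6, 227 against 9 for their difference, and 13 against 6936 for WT against SE over both treatments. Block and equal medians together gave 7, 4, 8 and 13. With only the groups compared they were 138 for DOX in SE, 32 against 21 for WT and SE in vehicle and 253 against 12 in DOX. Left out singly, libraries gave 36 to 8903 calls for WT against SE over both treatments. Without small RNA names, WT against SE gave 55 in vehicle and 520 in DOX, and DOX gave 0 and 1. Same-letter libraries deviated together (r = 0.767 in WT, 0.739 in SE, over 11163 genes), a hint from the data, since 2 pairs per construct do not establish pairing. The block changed no other call of a member.

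Depth is unknown, groups hold 2 libraries, and a library left out leaves a lone library assumed to vary like the others. In the simulated DOX comparison in WT most changes of 1 on the log2 scale were missed. The simulated libraries varied independently of each other, unlike the same-letter libraries here. The simulation therefore does not describe the fits with equal medians or with the replicate block.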
